A study of Homo sapiens with 8 samples.

Results

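The regions described here are stretches of chromatin that were open in U-937 cells under every condition of an ATAC-seq experiment and ranked higher whenever all-trans retinoic acid (ATRA) was present. Overlapping peaks of the 4 deposited peak lists were merged into 161291 union regions, of which 66303 held a peak in all 4 lists and are called constitutive. For each constitutive region the highest fold over local background was taken in each list and turned into a percentile, the rank of that fold among the 66303 regions divided by their number. The 5296 strengthened regions were chosen by these measured values: their percentile was at least 0.15 higher with ATRA than with DMSO, and at least 0.15 higher with ATRA plus Corin than with Corin alone. They made up 7.99% of the constitutive regions. The mirrored rule, both differences at or below -0.15, gave 3932 weakened regions, 5.93% of the constitutive ones, which serve below for comparison.

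U-937 is an established human cell line of monocytic character. The 8 samples formed 4 groups of 2, all cultured for 24 hours: DMSO, the vehicle; ATRA at 0.1 µM; Corin at 0.1 µM; and both compounds at 0.1 µM each. The authors combined the 2 samples of a group into 1 peak list, so a group has a single value per region, the spread between samples is unknown, and no difference between groups could be tested. ATAC-seq of many cells gives an average, in which fewer cells with an open region and a less open region in each cell cannot be told apart. There were 222491 peaks with DMSO and 222110 with ATRA, at median folds of 3.47 and 4.80, and 189896 with Corin and 197548 with both compounds, at 3.32 and 3.68. Folds thus ran higher in the ATRA list as a whole, and a percentile states only a rank within a list. A peak within 1 kb of the annotated start was present for 10 of 11 myeloid genes with DMSO and with ATRA and for 9 of 11 with Corin and with the combination; MPO had none in any list, and CSF1R had none in either list with Corin. Starts of the T cell genes CD3D, CD3E and CD3G, the B cell genes MS4A1 and PAX5, and all 8 epithelial, hepatocyte and neuronal genes checked had none, whereas those of the lymphoid genes CD2, CD8A and CD79A had one in all 4 lists.

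ATRA is the ligand of the retinoic acid receptors, which bind DNA with a retinoid X receptor as a heterodimer on direct repeats of a short hexamer and, once bound to ligand, exchange co-repressors for co-activators. In myeloid cells ATRA promotes differentiation, and much of the open chromatin of these cells away from promoters is held by PU.1, the lineage-defining ETS-family factor, together with C/EBP, RUNX and AP-1 proteins. Corin inhibits the CoREST complex, a co-repressor that carries the histone demethylase KDM1A and the deacetylases HDAC1 and HDAC2.

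The 200 bp around the strongest summit of each region were searched for 22 motifs on both strands, and sequences that show what these windows hold are printed here in hg38, plus strand. The first set is shown because these are the 3 regions in which the smaller of the differences was largest. None of their windows held a match to PU.1, AP-1 or a retinoid direct repeat, so they are in lower case throughout; each region is named by its nearest protein-coding start.
CEP72 (chr5:594351-594550): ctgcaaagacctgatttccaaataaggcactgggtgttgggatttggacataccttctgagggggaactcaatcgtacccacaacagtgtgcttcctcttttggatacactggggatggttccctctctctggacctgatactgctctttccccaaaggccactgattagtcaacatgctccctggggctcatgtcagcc
DIS3L2 (chr2:232126755-232126954): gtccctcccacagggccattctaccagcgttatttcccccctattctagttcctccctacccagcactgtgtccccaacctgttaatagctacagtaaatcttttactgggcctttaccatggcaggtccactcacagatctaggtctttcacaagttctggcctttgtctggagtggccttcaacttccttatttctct
AP1S2 (chrX:15939836-15940035): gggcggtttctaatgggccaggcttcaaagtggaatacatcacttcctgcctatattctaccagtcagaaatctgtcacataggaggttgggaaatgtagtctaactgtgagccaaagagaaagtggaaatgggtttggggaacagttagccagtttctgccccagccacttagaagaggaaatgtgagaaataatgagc

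The second set is shown because these windows carry the element that a retinoic acid receptor is known to bind. Capitals mark a direct repeat, in which each hexamer was AGGTCA or GGGTCA or AGTTCA or GGTTCA, with a spacer of 5 bases in PRDX6, BATF2 and ITPR2 and of 2 bases in GFI1 and ALDH1A2. A match on the minus strand reads as its reverse complement, as in BATF2, ITPR2 and GFI1. From the BATF2 window, 38 bases of annotated UTR were left out. The GFI1 window was chosen after its values were seen, as the strengthened region with a spacer of 2 and the largest smaller difference.
PRDX6 (chr1:173422426-173422625): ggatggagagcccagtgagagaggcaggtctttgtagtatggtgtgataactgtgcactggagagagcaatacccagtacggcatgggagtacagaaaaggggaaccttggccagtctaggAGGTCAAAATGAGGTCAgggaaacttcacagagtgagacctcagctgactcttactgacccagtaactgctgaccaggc
BATF2 (chr11:64990275-64990436): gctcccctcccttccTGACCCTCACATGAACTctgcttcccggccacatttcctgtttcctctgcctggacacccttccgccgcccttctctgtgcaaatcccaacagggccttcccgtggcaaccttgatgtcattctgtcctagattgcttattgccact
ITPR2 (chr12:26874471-26874670): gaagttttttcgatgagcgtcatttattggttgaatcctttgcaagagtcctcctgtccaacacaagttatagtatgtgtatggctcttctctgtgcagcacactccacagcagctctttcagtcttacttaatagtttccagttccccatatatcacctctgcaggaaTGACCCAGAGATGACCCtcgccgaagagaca
GFI1 (chr1:92447148-92447347): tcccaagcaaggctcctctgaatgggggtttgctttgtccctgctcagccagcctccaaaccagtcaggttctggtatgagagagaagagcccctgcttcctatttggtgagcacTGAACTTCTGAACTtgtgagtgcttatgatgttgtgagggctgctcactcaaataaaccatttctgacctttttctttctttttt
ALDH1A2 (chr15:58282432-58282631): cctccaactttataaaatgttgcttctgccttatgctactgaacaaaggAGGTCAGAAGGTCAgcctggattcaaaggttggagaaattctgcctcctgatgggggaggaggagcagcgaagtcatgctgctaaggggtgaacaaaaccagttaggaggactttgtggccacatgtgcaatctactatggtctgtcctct

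The last set shows the PU.1 motif GAGGAAGT, found more often in the strengthened regions than in the constitutive regions as a whole, in an intron of RUNX1. Capitals mark PU.1, read on the minus strand as ACTTCCTC, and the AP-1 motif TGANTCA near the 3′ end.
RUNX1 (chr21:34946375-34946574): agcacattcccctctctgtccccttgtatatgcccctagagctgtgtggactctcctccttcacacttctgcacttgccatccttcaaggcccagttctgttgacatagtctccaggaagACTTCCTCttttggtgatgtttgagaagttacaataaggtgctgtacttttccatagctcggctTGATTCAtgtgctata

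On the median, the strengthened regions ranked below the middle of the constitutive regions without ATRA and above it with ATRA; the rule fixes the direction. Their median percentile was 0.34 with DMSO, 0.72 with ATRA, 0.25 with Corin and 0.56 with the combination. The corresponding median folds were 6.62, 16.0, 4.68 and 9.82, against 8.74, 11.8, 7.93 and 8.81 over all constitutive regions. Of the 5296 regions, 1046 (19.8%) ranked in the highest 10% of the ATRA list. In the DMSO list 0 did so, since a required gain of 0.15 allows no member there. At the other end, the lowest percentile that a strengthened region had with ATRA was 0.16, and the rule allows none below 0.15. In the comparison without Corin alone, 17.2% of the constitutive regions reached a difference of 0.15, and in the comparison within Corin 12.6% did. Among the members the differences ran from 0.15 to 0.89 without Corin (median 0.31) and from 0.15 to 0.88 with it (median 0.26), and 3369 of them (63.6%) had the larger difference without Corin.

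**Figure D1:**
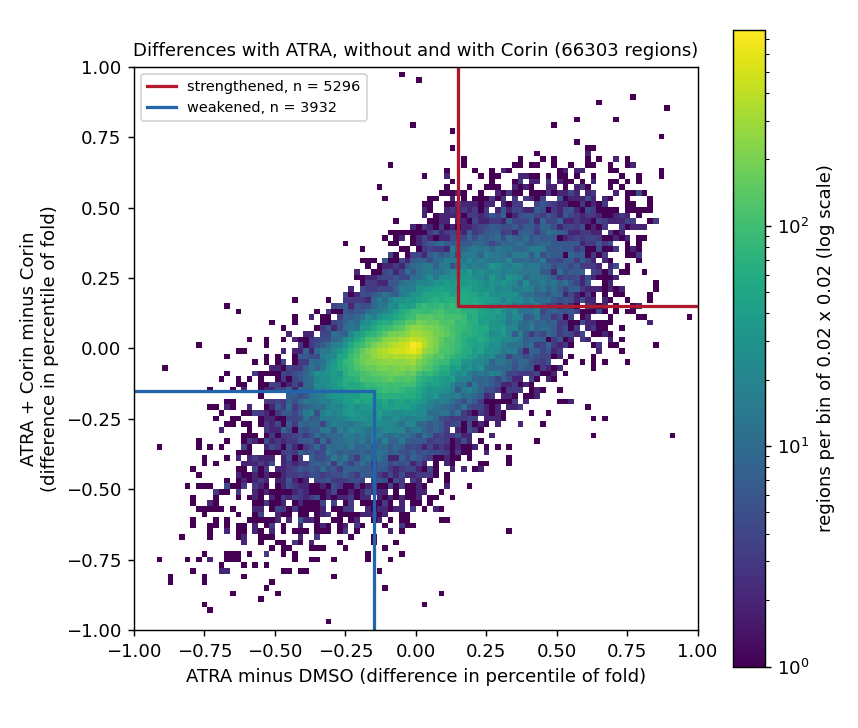
Difference in percentile of fold between ATRA and DMSO (horizontal axis) and between ATRA plus Corin and Corin alone (vertical axis) for the 66303 constitutive regions, counted in bins of 0.02 by 0.02 with colour on a log scale. The red lines bound the 5296 strengthened regions and the blue lines the 3932 weakened ones; both lie at the ends of one continuous cloud.

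The limit of 0.15 cuts through this cloud and does not follow a gap in it. The 3 strengthened regions nearest to it, in introns of RHBG, CUEDC1 and SOAT2, had a smaller difference of 0.15004. The nearest regions outside it had 0.14998 (nearest to CHN1), 0.14996 (CHRNB4) and 0.14990 (ACSL1). Regions on either side of the limit were thus alike in the ranked value. A second score of the authors, the −log10 p of the same peaks, placed 5266 of the 5296 members (99.4%) higher with ATRA in both comparisons, and 3476 (65.6%) higher by at least 0.15 in both; it comes from the same reads and is no independent measure. The strongest summits of the ATRA and DMSO lists lay within 50 bp of each other in 94.0% of the strengthened regions, 90.6% of all constitutive regions and 88.4% of the weakened ones, with a median distance of 9 bp in the strengthened regions. The peaks therefore had nearly the same position in both lists and differed in rank.

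**Figure D2:**
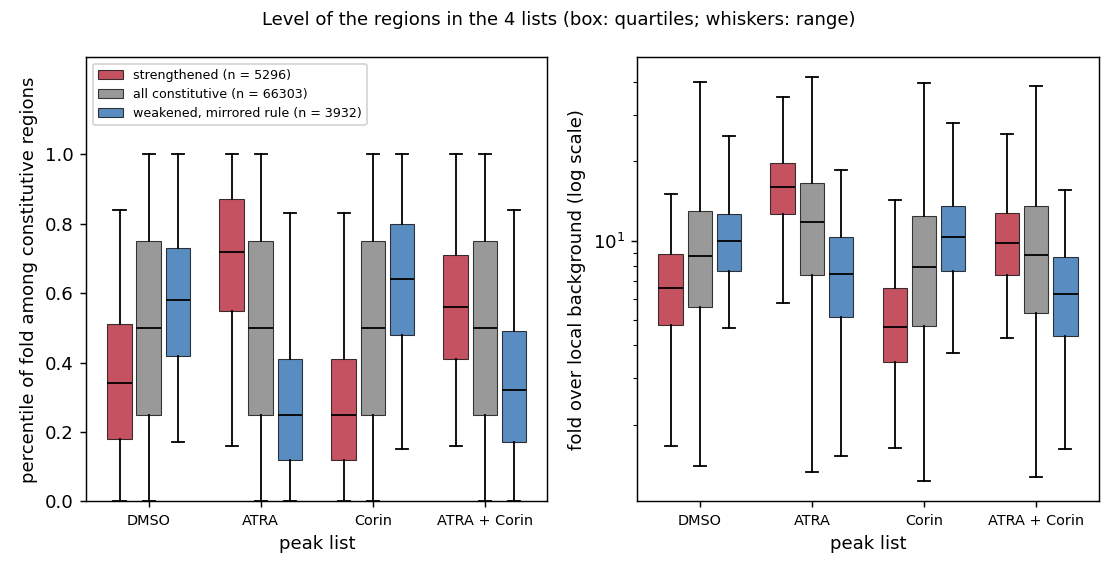
Percentile of fold (left) and fold over local background on a log axis (right) in the 4 peak lists for strengthened (red), all constitutive (grey) and weakened (blue) regions; boxes give the quartiles, the line the median and the whiskers the whole range over regions. The red medians are higher in both lists with ATRA (0.72 and 0.56 on the left) than in both without it (0.34 with DMSO and 0.25 with Corin).

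With Corin the strengthened regions ranked lower, both in the absence and in the presence of ATRA. Their median difference was -0.06 for Corin against DMSO and -0.11 for the combination against ATRA. A percentile lower by at least 0.15 was found in 28.3% of them for Corin against DMSO, where 12% of all constitutive regions and 11.5% of the weakened ones had it. For the combination against ATRA the shares were 42.0% of the strengthened regions, 16.7% of all and 12% of the weakened. Percentiles higher by at least 0.15 were rarer: 5.65% of the strengthened regions against 10.8% of all for Corin, and 4.29% against 16.7% for the combination. In 3319 members (62.7%) the percentile was lower with Corin on both backgrounds. These comparisons use the same 4 lists as the rule, which favours a low value in the DMSO and Corin lists and a high one in the lists with ATRA, so the shares describe the members and support nothing further.

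The 12 regions with the largest smaller difference showed the pattern at its widest. The top region lay between genes, 17528 bp from the start of CEP72, which encodes a centrosomal protein, at chr5:594022-594812. Its fold was 3.70 with DMSO, 26.3 with ATRA, 2.83 with Corin and 18.2 with the combination, and its percentile went from 0.09 to 0.98 and from 0.06 to 0.92. Both lists with ATRA were high and both without it near the bottom of the constitutive regions. The second region lay in an intron of DIS3L2, an exoribonuclease gene, with folds of 5.22, 26.7, 2.76 and 19.1 in the same order. The third lay between genes 84775 bp from the start of AP1S2, which encodes a subunit of a clathrin adaptor and has no tie to the AP-1 transcription factor, with folds of 3.33, 22.6, 2.62 and 14.3. The fourth lay 13307 bp from BIRC3, an inhibitor of apoptosis that acts in NF-kB signalling, at 5.80, 24.3, 2.76 and 16.4, and its window held a PU.1 and a C/EBP match. In each of these regions the lowest of the 4 values was that with Corin alone.

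Among the other 8, the highest fold belonged to a region 29354 bp from the start of ADAR, the gene of an RNA-editing deaminase: 6.81 with DMSO, 35.1 with ATRA, 3.32 with Corin and 22.4 with the combination. A region over a promoter in PDCD11, a gene of ribosomal RNA processing, stood at 4.54, 20, 2.11 and 12.2. The remaining regions lay in introns or between genes near CDYL2, NTRK3, ANTXR2, TMEM39A, NFAT5 and HHIP. Their folds ran from 3.77 to 5.94 with DMSO, from 19.3 to 25.8 with ATRA, from 2.62 to 4.31 with Corin and from 12.7 to 16.1 with the combination. In all 12 regions both values with ATRA exceeded both values without it.

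**Figure D3:**
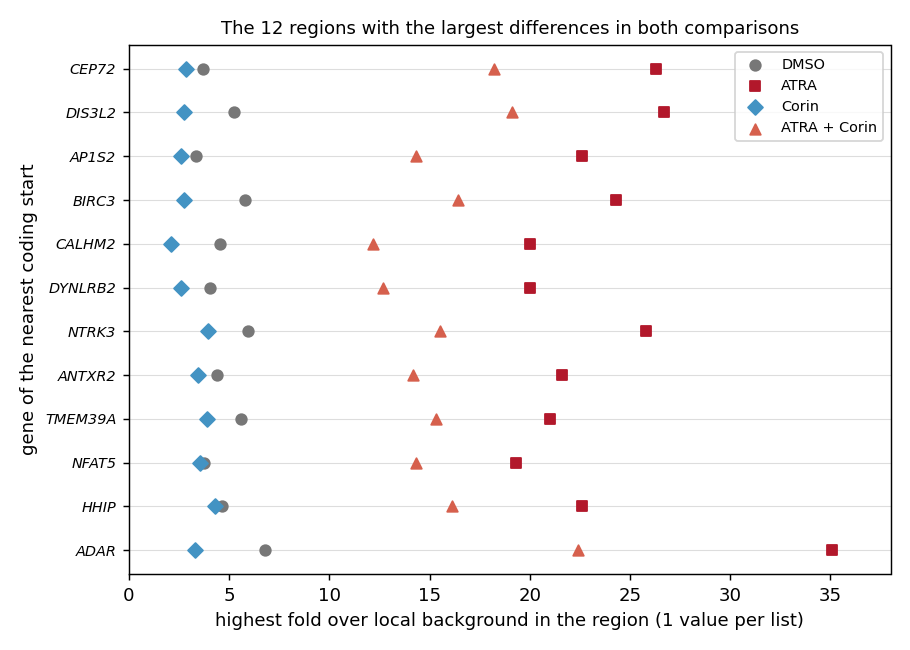
Highest fold over local background in each of the 4 lists for the 12 strengthened regions with the largest smaller difference, named by the nearest protein-coding start; each symbol is the single value of 1 list. In each region the squares (ATRA) and triangles (combination) lie to the right of the circles (DMSO) and diamonds (Corin).

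Sequence was not used to choose the members, and the shares of windows with a PU.1 or an AP-1 motif differed between the members and the constitutive regions as a whole. A match to PU.1, GAGGAAGT, lay in the 200-bp window of 981 strengthened regions (18.5%), against 7.62% of all constitutive regions and 3.56% of the weakened ones. The AP-1 motif, TGANTCA, went the other way: 270 strengthened regions (5.10%), 13.4% of all and 42.6% of the weakened. To gauge base composition, each motif was also searched with its letters reversed and not complemented. The reversed PU.1 motif was found in 1.53%, 1.22% and 1.07% of the 3 sets, and the reversed AP-1 motif in 4.80%, 4.47% and 6.56%. Strengthened regions thus held AP-1 at about the share of its reversed letters, and PU.1 far above it. Read from the motif, 981 of the 5049 constitutive regions with a PU.1 match (19.4%) were strengthened, but 270 of the 8856 with an AP-1 match (3.05%), of which 18.9% were weakened. A match describes letters in a window; no binding was measured.

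Away from promoters PU.1 matches lay in 18.9% of 4554 strengthened regions (95% Wilson interval 17.8 to 20.1), 8.83% of 46297 constitutive and 3.66% of 3306 weakened regions. The AP-1 shares were 5.20% (4.6 to 5.89), 15.6% and 43.6%. At promoters, 16.2% of 742 strengthened regions held PU.1 (13.7 to 19.0) against 4.80% of all 20006 constitutive promoters, so the gap was seen there as well. Such intervals cover counting error over regions only, not the variation between cultures.

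**Figure D4:**
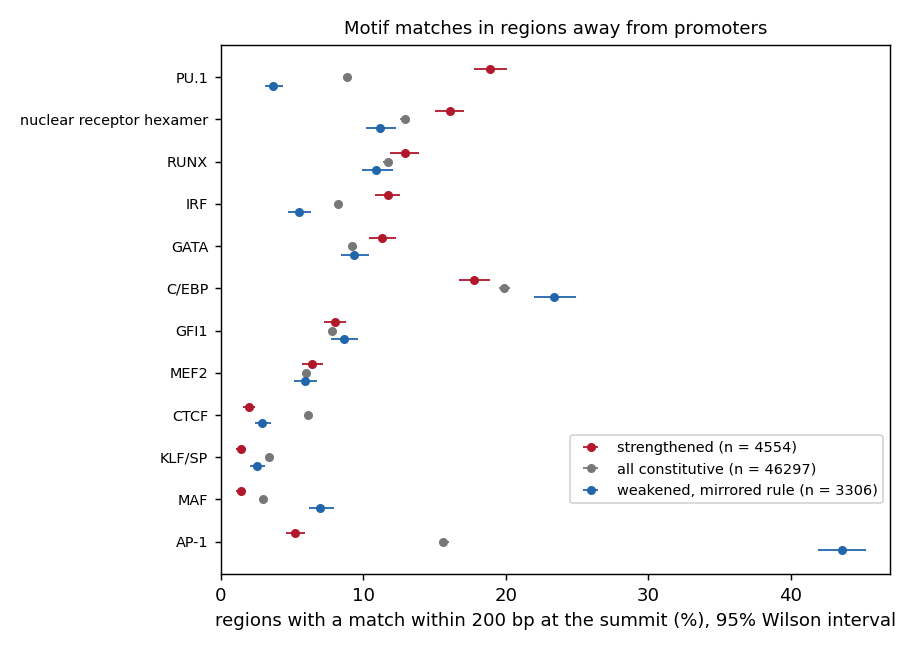
Share of regions away from promoters with a match within the 200-bp window at the summit, for 12 motifs; points are shares and bars 95% Wilson intervals over 4554 strengthened (red), 46297 constitutive (grey) and 3306 weakened (blue) regions. PU.1 stands furthest right for the strengthened regions (18.9%) and AP-1 for the weakened ones (43.6%).

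The PU.1 share was larger where the difference was larger. Away from promoters, and by the mean of both differences, it was 3.41% in regions under -0.3, 7.60% between -0.05 and 0.05, and 21.2% at 0.3 and over. AP-1 was found in 57.5%, 12.5% and 5.86% of the same classes, and RUNX, TGTGGTT, in 11.5% to 12.6% of each of the 7 classes. Within the strengthened regions themselves, split into 4 groups of 1324 by the smaller difference, PU.1 matches lay in 15.3%, 16.8%, 19.3% and 22.6%, from the smallest differences to the largest. PU.1 matches also sat at the summit: 48.0 matches per 1000 strengthened regions fell in the 20 bp centred on it, and 2.27 in the 20 bp centred 100 bp upstream on the plus strand. AP-1 matches in the strengthened regions had no such peak, at 3.97 per 1000 on the summit and 4.53 at that distance, whereas the weakened regions had 102 on the summit. Over all constitutive regions both motifs peaked there: PU.1 at 16.2 against 1.95 at that distance, and AP-1 at 24.4 against 7.53. The summit used came from a list with ATRA in 100% of the strengthened regions, 78.0% of all and 3.87% of the weakened.

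**Figure D5:**
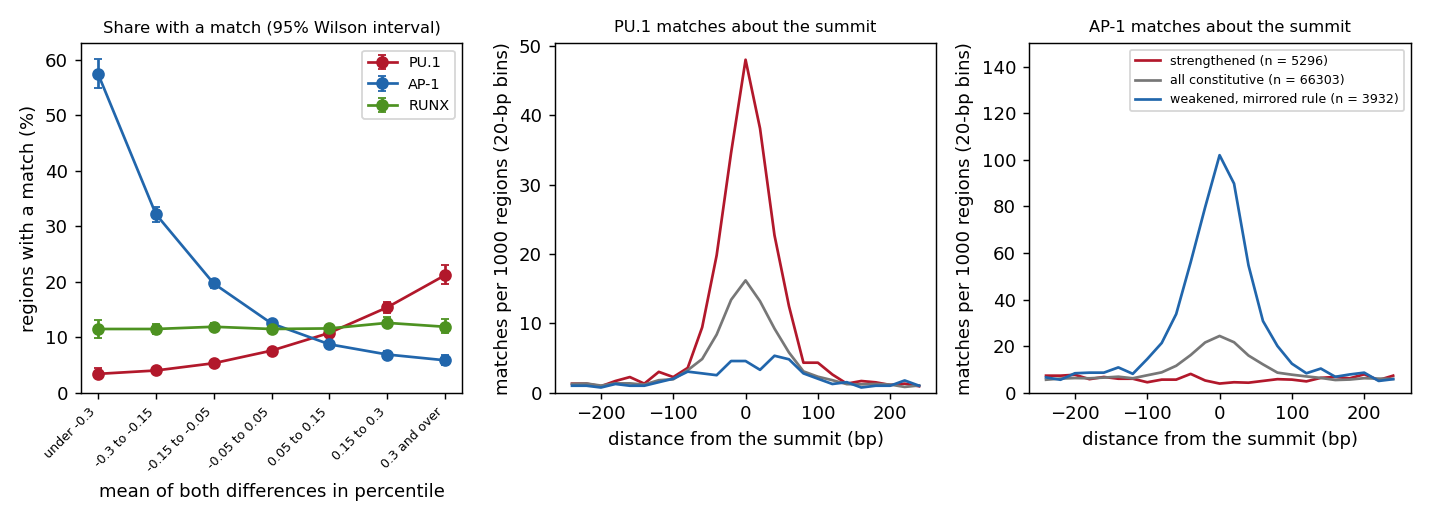
Left, share of regions away from promoters with a PU.1, AP-1 or RUNX match in 7 classes of the mean of both differences, with 95% Wilson intervals; middle and right, PU.1 and AP-1 matches per 1000 regions in bins of 20 bp by distance from the summit for strengthened (red), all constitutive (grey) and weakened (blue) regions. PU.1 stands at 21.2% and AP-1 at 5.86% at the right end, and the red line peaks at the summit for PU.1 (48.0 per 1000) but not for AP-1.

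Strengthened regions were also poorer in GC. The mean GC content of the window was 46.4% in them, 52.3% over all constitutive regions and 49.1% in the weakened ones, and 45.8%, 48.3% and 48.0% away from promoters. Of constitutive regions with under 40% GC, 13.3% were strengthened, and of those with 60% and over, 1.5%. The ranks as a whole moved with GC too: the median ATRA minus DMSO difference of all regions ran from 0.03 in the class under 40% to -0.06 in that of 60% and over, while that within Corin ran from 0.01 to -0.00. Whether GC content had a part in the choice of these regions through the libraries was not tested. Within each of 6 classes of GC content, PU.1 matches were more frequent in the strengthened regions (12.4% to 19.8%) than in all constitutive regions (3.25% to 9.72%), and AP-1 matches less frequent (1.72% to 5.57% against 4.81% to 17.1%).

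Over all positions, some of the other motifs moved with their reversed letters. The interferon-regulatory-factor motif GAAANNGAA was found in 11.6% of strengthened regions and 7.31% of all, but so was its reversed form, in 11% and 6.65%. RUNX was found in 12.7% and 9.85%, and C/EBP, TTGCNNAA, in 17.3% and 16.5% (22.7% of the weakened). Away from promoters the C/EBP shares were 17.8% of the strengthened regions and 19.9% of all, so the order depended on promoters. KLF/SP, GGGCGGG, a promoter motif, lay in 1.93% against 12.4% (1.41% against 3.37% away from promoters), CTCF in 2.06% against 5.26% (1.95% against 6.14% away from promoters), and MAF, GCTGANTCA, which contains the AP-1 motif, in 1.42% against 2.61%. GGGCGGG reads the same when reversed, so KLF/SP had no control for base composition. The reversed CTCF motif lay in 0 strengthened regions and 0.0106% of all, too few to serve as one. PU.1 seldom came with a second motif of this set: of the 981 strengthened regions with PU.1, 13.7% also held C/EBP, 10.1% the IRF motif, 8.77% RUNX and 4.49% AP-1, against 18.1%, 11.9%, 13.6% and 5.24% of those without it.

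Direct repeats of the receptor hexamer were rare in the strengthened regions, though more frequent than elsewhere. Repeats with a spacer of 1, 2 or 5 bases lay in 34 of the 5296 windows (0.642%), against 0.235% of all constitutive regions and 0.254% of the weakened. The repeats with reversed letters lay in 0.227%, 0.211% and 0.203% of these sets. By spacer, 18 windows held a repeat with 2 bases, 11 with 5 and 5 with 1. For a spacer of 1 the shares were close, at 0.0944% of the strengthened regions and 0.0679% of all. Its reversed letters lay in 0.113% of the strengthened regions. Of the 56 constitutive regions with a spacer of 2, 18 were strengthened (32.1%), and of the 55 with a spacer of 5, 11 were (20%). From the smallest differences to the largest, the 4 groups of 1324 strengthened regions held 4, 8, 6 and 16 of them. The single hexamer AGGTCA, which the repeats contain, was found in 16.2% of strengthened regions and 11.5% of all, and its reversed letters in 12.7% and 10.6%. Regions with a repeat had lower ranks without ATRA: the 34 members had a median percentile of 0.16 with DMSO and 0.20 with Corin, and the other members had 0.34 and 0.25. This was not limited to the members, since the 156 constitutive regions with a repeat had 0.31 with DMSO and the other constitutive regions 0.50.

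Of the regions with a spacer of 5, the largest smaller difference belonged to one 54380 bp from the start of PRDX6, a peroxiredoxin gene, at chr1:173422133-173422955, whose differences were 0.46 and 0.44. The region over the promoter of BATF2, which encodes a leucine-zipper factor of the AP-1 superfamily, had 0.42 and 0.55, and one 40937 bp from ITPR2, the gene of an intracellular calcium channel, 0.39 and 0.53. A region in an intron of TENM4, a gene of a transmembrane adhesion protein, had 0.40 and 0.35, and one over the SMYD5 promoter 0.32 and 0.25. With a spacer of 2, the region at chr1:92446664-92447666, 32819 bp from GFI1, the gene of a zinc-finger repressor of myeloid development, had folds of 2.64 with DMSO, 15.6 with ATRA, 2.48 with Corin and 9.77 with the combination. Its values without ATRA were among the lowest of the constitutive regions, at a percentile of 0.03 in both lists.

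The genes of retinoid signalling and metabolism had 21 strengthened regions among their 209 constitutive ones (10.0%, interval 6.67 to 14.9), near the 7.99% over all regions. A region counted for a gene if it lay within 10 kb of the gene's body or had that gene's start as its nearest protein-coding one. ALDH1A2, whose product makes retinoic acid from retinaldehyde, had 8 of 40, with 2 weakened. Of the 8, 5 lay in the gene. The others counted only by the nearest start, in ADAM10 at 124110 bp and in LIPC at 36910 and 52301 bp. Of the 8, the one with the largest smaller difference lay in an intron of ALDH1A2 at chr15:58281885-58282796, the one with the printed repeat of spacer 2, at 4.44 with DMSO, 14.4 with ATRA, 2.26 with Corin and 14.7 with the combination. Unlike the top regions, it was as high with the combination as with ATRA alone. RARB, the receptor gene that is itself a known ATRA target, had 2 of 8. One lay 6936 bp outside the gene over an exon of the non-coding gene THRB-AS1, at chr3:24680361-24680951, with 5.53, 13.0, 4.1 and 10.3. The region over the promoter at chr3:25427136-25428917, chosen for mention after its values were seen, had 6.23, 12.3, 3.54 and 11.8. That promoter holds a textbook retinoic acid response element, and a search of the whole region found a single repeat with a spacer of 5, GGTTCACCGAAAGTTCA at chr3:25428210-25428226, 94 bp from the summit and so not wholly inside the 200-bp window.

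A region over a start of RXRG, a heterodimer partner of the retinoic acid receptors, had 6.23 with DMSO, 20.6 with ATRA, 6.56 with Corin and 12.8 with the combination, and held PU.1 and C/EBP matches. Of the genes named after their counts were seen, CRABP1, which binds retinoic acid in the cytoplasm, had 2 strengthened of 4 regions, and RARG, another receptor, 2 of 6. The 2 of CRABP1 lay 20216 and 28083 bp from its start. RARA, the main receptor gene of myeloid cells, had 0 of 10, and CD38, a surface enzyme gene long known as an ATRA target, had 0 of 6 with 3 weakened.

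Myeloid transcription factor genes had 47 strengthened of 575 regions (8.17%), which is at the background. RUNX1, a regulator of blood formation, had 6 of 55, and among regions within 10 kb of a gene of this list, the 3 with the largest smaller difference lay in its introns. That at chr21:34946038-34947131, shown above with its PU.1 match, had folds of 8.05 with DMSO, 21.7 with ATRA, 5.87 with Corin and 13.7 with the combination. Of the other factors, 2 are named after their counts were seen: KLF4, a monocyte-lineage factor, had 6 of 45, and ID2, an inhibitor of helix-loop-helix factors, 7 of 52. All of these counted only by the nearest start. They lay 22885 to 622972 bp from that of KLF4 and 152303 to 781413 bp from that of ID2. Phagocyte effector and surface genes had fewer, 16 of 359 (4.46%, interval 2.76 to 7.12), as many as were weakened. Among them were a region within 10 kb of C5AR1, the complement C5a receptor, with 9.65, 19.1, 4.95 and 11.7, and one in an intron of SYK, a kinase of immune receptors, with 7.73, 17.1, 9.06 and 15.9. CSF1R, the macrophage growth factor receptor gene, named after its values were seen, had a strengthened region over another of its annotated starts than the one checked as a marker, with 2.69, 9.40, 1.91 and 5.18.

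The remaining lists were also near the background. Interferon-stimulated genes had 7 of 98 (7.14%), with regions in TRIM22, an antiviral ubiquitin ligase, at 4.06, 11.4, 3.54 and 8.70 in the order DMSO, ATRA, Corin and combination, and 2 in PML, the gene fused to RARA in promyelocytic leukaemia. AP-1, MAPK and inflammatory genes had 21 of 325 (6.46%), with a region within 10 kb of FOSL2, an AP-1 subunit gene, at 10.1, 23.6, 6.90 and 17.1; regions near PLAUR, the urokinase receptor, and HBEGF, a growth factor, were the next by the smaller difference among regions within 10 kb of a list gene. Proliferation and self-renewal genes had 22 of 274 (8.03%), and within 10 kb of a list gene the largest smaller differences lay in introns of ERG, an ETS factor, BCL2, an inhibitor of apoptosis, and LMO2, a blood progenitor factor. CCND2, a cyclin of the G1 phase, named after its count was seen, had 5 of 13. Apart from that in its intron, these lay 53694 to 161811 bp from its start. The list of CoREST complex genes had 7 of 98 (7.14%), but it also held the co-activator genes EP300 and CREBBP, which are not subunits. EP300 had 1 of 6 regions and CREBBP 1 of 8. Others of the 7 lay in HDAC2 at 10.8, 20.7, 7.0 and 12, and in RCOR1, the scaffold of the complex, at 4.93, 18.5, 4.6 and 7.50. Each of these regions was higher in both lists with ATRA, which the rule fixes.

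Strengthened regions lay mostly in introns and between genes. Within 1 kb of an annotated start were 742 of them (14.0%, interval 13.1 to 15), against 30.2% of all constitutive regions and 15.9% of the weakened. In introns lay 53.2%, 40.6% and 49.1%, and between genes 28.5%, 25.6% and 31.6%. Seen from the class, 3.71% of constitutive promoters were strengthened, and 10.5% of intronic regions. The median distance to the nearest protein-coding start was 21898 bp for the strengthened, 16195 bp for all and 32653 bp for the weakened regions, and 43.6% of the strengthened regions were 10 to 50 kb away, against 33.5% of all and 36.1% of the weakened.

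Most strengthened regions stood alone at the distance used, but no other set of regions was joined in the same way for comparison. With members no more than 50 kb apart joined, 3423 were single, 1222 formed 611 pairs, and 651 formed 197 clusters of 3 or more. The cluster with the most members lay on chromosome 19 from 51461185 to 51658989, over genes of the SIGLEC family, sialic acid receptors of myeloid cells: 8 of its 24 constitutive regions were strengthened and 0 weakened. Clusters of 6 lay on chromosome 1 around MYCL, TRIT1 and MFSD2A (6 of 19) and on chromosome 2 around IL1A and IL1B, the interleukin-1 genes (6 of 24). Each held 1 weakened region. Over the 24 regions around IL1A and IL1B the median differences were -0.00 without Corin and 0.02 with it. In that cluster the region near IL1B, named after its values were seen, had folds of 3.20 with DMSO, 6.83 with ATRA, 4.1 with Corin and 6.52 with the combination. A further cluster on chromosome 19, over LILRA1, LILRA2 and LILRB1, immune receptors of myeloid cells, held 5 of 9. One on chromosome 1 around TUT4 and GPX7 held 5 of 8, and both had 1 weakened region. Clusters around RIN3 (5 of 14), PKDCC (5 of 11) and APOO (5 of 15) also held 5, with 0, 1 and 1 weakened. Clusters were ordered by their number of strengthened regions, so their shares are a description.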

How the data were processed

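The 8 ATAC-seq samples, 2 per group, are represented by 1 deposited narrowPeak list per group, matched by the treatment in its name. The submitters' processing notes name cutadapt, Bowtie2, SAMtools, Picard and MACS2 and the build hg38, with no settings; all peak ends lay inside the hg38 chromosome lengths on the 24 chromosomes. In the deposited lists the fold column is a ratio over local background, p and q are given as −log10, and the summit is an offset in bp (unit other), as the narrowPeak layout and the values show. The authors combined replicates before deposit. No column held values per sample (0 left unused), and read depth is unknown. Folds are the authors' and served to rank regions within a list.

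Peaks overlapping by at least 1 bp were merged over the lists. Position came from GENCODE release 44: within 1 kb of an annotated start a promoter, else exon, intron or intergenic by the summit. Motifs were searched in hg38 within 200 bp centred on the strongest summit. Regions named are the 12 with the largest smaller difference, the 3 nearest to the limit on either side, the 5 with a spacer-5 repeat, and the 3 per gene list within 10 kb of a list gene, by the same order; others are said to be chosen after their values were seen. A few regions under this rule are not reported here. The members, the 7 gene lists (214 different genes) and the motifs were chosen with earlier results of these data known. No test was made, since each group had 1 list and the rule used its values. Shares carry 95% Wilson intervals. Alternatives concerned peak stringency, the sequences used, merging, the ranked score, the reference set, the limit, the promoter distance and the window. Scripts were tested on simulated data and used Python 3.11.15, pandas 2.3.3, numpy 2.4.6, scipy 1.17.1 and pysam 0.24.0.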

Additional observations from a re-analysis of the deposited data

How the results depend on the processing

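No paired analysis was possible because each group had 1 list of pooled replicates; for the same reason no replicate could be left out. Of 64 values recomputed under 13 alternatives, 41 kept within their interval (the count of members within 1.5 times) and 23 moved. Values were scored only as kept or moved, so a change of direction was not scored. The alternative that took every sequence of the lists had the same input as the main run, so its values could not move. The cause of the moves below was not tested. The 5296 members became 3062 with percentiles among all regions of a list, where the weakened became 4532 and outnumbered them, 8241 at a limit of 0.10 and 3391 at 0.20. The promoter share of 14.0% became 15.3% when −log10 p was ranked, 15.4% at 0.10 and 24.4% with promoters within 2.5 kb. Mean GC of 46.4% became 46.6% by −log10 p, 45.9% among all regions, 47.2% at 0.10 and 45.8% at 0.20. PU.1 (18.5%) was 20.3% among all regions, 16.5% at 0.10, 19.9% at 0.20, 15.5% in 100 bp and 20.1% in 400 bp, where all constitutive regions had 5.72% and 8.92%. AP-1 (5.10%) was 4.36% by −log10 p, 2.42% in 100 bp and 10.6% in 400 bp, against 8.99% and 18.5% of all. Direct repeats (0.642%) were 0.914% among all regions, 0.302% in 100 bp and 1.17% in 400 bp, against 0.101% and 0.725% of all. Ranking within classes of GC content, an alternative chosen after seeing the data, gave a promoter share of 17.0% and a GC content of 47.6%; the other such alternative, windows at the DMSO summit, moved no share beyond its interval. Read depth, which limits weak peaks, is unknown.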
